A study of Mus musculus with 19 samples.

Results

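The effect of the C451A-ERα genotype on luminal cells (LCs) was averaged over the 2 hormone treatments of the series, so as to describe the expression changes that both treatments share. All 19 arrays of the series entered the comparison (19 of 19 samples), with 10 C451A-ERα mice set against 9 wild-type mice and the treatment taken as a covariate. Each array read the RNA of LCs sorted as CD24+CD29lo cells, negative for CD45 and CD31, from the mammary glands of 1 female C57Bl/6N mouse. All mice were ovariectomized, at 24 days by the sample labels, received a pellet 10 days later, were treated for 21 days and were 8 weeks old. The pellet released E2 (estradiol, 0.01 mg over 60 days) alone, or E2 at the same dose with progesterone (Pg, 1.5 mg over 60 days). C451A-ERα mice with E2 were L4, L58, L27, L76 and L51 (n = 5), and wild-type mice with E2 were L67, L50, L72 and L52 (n = 4). C451A-ERα mice with E2+Pg were L56, L18, L61, L53 and L63 (n = 5), and wild-type mice with E2+Pg were L57, L62, L44, L47 and L21 (n = 5). Values by mouse are given in this order throughout. The mutation is a germline point mutation, so that every cell type of these mice carries it and not the LCs alone.

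ERα, the product of Esr1, is a nuclear receptor that binds DNA at estrogen response elements, or other transcription factors such as AP-1, and it changes the transcription of its target genes when estradiol binds. A fraction of the receptor carries a palmitate, a lipid attached to the cysteine that C451A replaces with alanine, and this lipid holds that fraction at the plasma membrane, where it acts on kinases and G proteins. In the mammary epithelium only some LCs contain ERα. These hormone-sensing cells pass the signal to their neighbors through secreted factors such as amphiregulin and RANKL.

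Values are the log2 of a probe's signal after quantile normalization, and a difference of 1 is therefore a doubling of signal. A gene is called higher or lower in C451A-ERα LCs where its adjusted p (limma, Benjamini-Hochberg over all genes, two-sided) was under 0.05 and its fold change above 1.5. In total 20665 genes were tested, each by its brightest probe. The signals came from whole sorted populations, in which fewer cells of a type and less RNA per cell cannot be told apart. The Esr1 probe was not placed relative to the mutated base, and the genotype of a mouse was not checked on its array. The labels name the mice as separate animals, and the number of arrays limits the precision. The arrays lay on 5 slides, each with 1 mouse of every group except slide 3, which held no wild-type mouse with E2, so that 9 pairs of a C451A-ERα and a wild-type mouse of the same treatment shared a slide.

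Some mice stood apart from the others of their genotype. Over the 368 genes that were lower in C451A-ERα LCs, the mean deviation from the average of all mice was −0.33 in wild-type L72 and −0.38 in wild-type L21, against 0.56 to 1.39 in the other 7 wild-type mice. Among C451A-ERα mice it was 0.37 in L4, against −1.07 to −0.31 in the other 9. Over the 71 higher genes, C451A-ERα L18 deviated by −0.31 and L4 by 0.05, against 0.25 to 0.99 in the other 8 C451A-ERα mice, and wild-type L72 and L21 by 0.51 and 0.09, against −1.05 to −0.73 in the other wild-type mice. These scores rest on the genes that the genotype test selected and are a description. The weights that limma assigns to arrays by their residual spread were under 0.5 for L4, L27, L18 and L21 (0.236 to 0.42), and 0.844 for L72. The 75th percentile of signal (248.5 to 490 over all arrays) was 348 in L72, 275 in L21, 337 in L4 and 407 in L18, which lies within the range of the others.

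**Figure D1:**
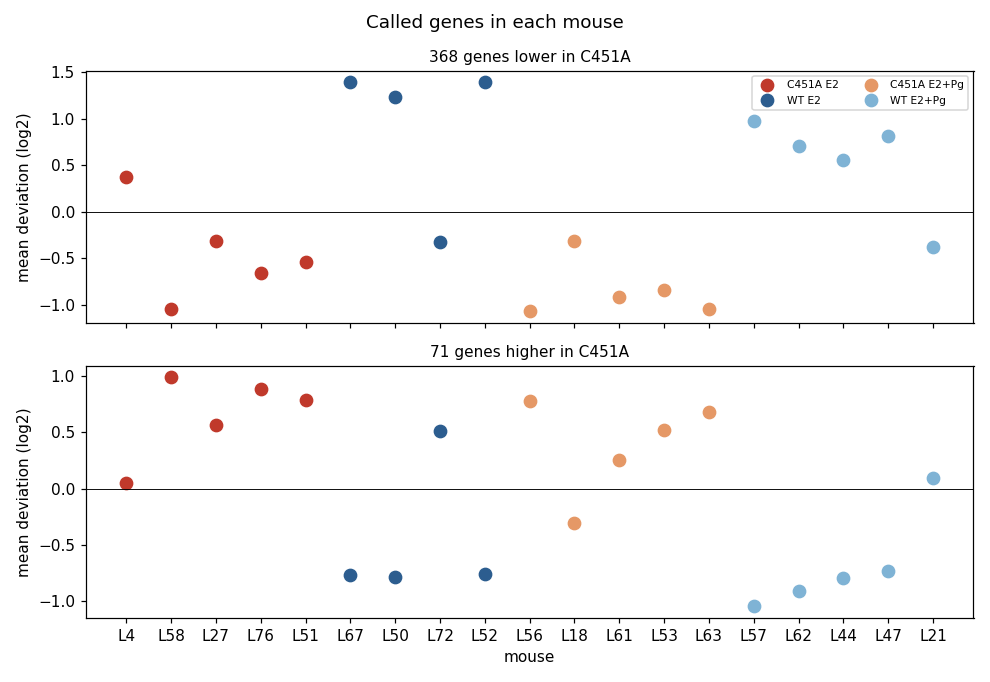
Mean deviation (log2) of each mouse from the average of all 19 mice, over the 368 genes lower (top) and the 71 genes higher (bottom) in C451A-ERα LCs. Each point is 1 mouse and colors mark the 4 groups. L72 and L21 lie on the C451A-ERα side among wild-type mice, and L4 and L18 lie toward the wild-type side among C451A-ERα mice.

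Most genes that passed were lower in C451A-ERα LCs. Of the genes tested, 368 (1.78%) were lower and 71 (0.344%) higher in C451A-ERα LCs, with a smallest adjusted p of 0.0104. The number of called genes in each list below is to be read beside these shares of all genes. The excess of lower genes was smaller at an unadjusted p below 0.05, with 1960 lower (9.48%) and 1788 higher genes (8.65%). It was smaller, too, with array weights (1108 lower and 891 higher genes) and without the 4 mice of low weight (1375 and 1203). The median fold change was 2.21 among lower genes, with 233 past 2-fold and 56 past 4-fold, and 1.83 among higher genes, with 26 past 2-fold and 5 past 4-fold. The largest was the 49.6-fold loss of Penk, a precursor of opioid peptides. The median difference over all genes was 0.00284 on the log2 scale. Lower genes had a median wild-type level of 8.46 and higher genes one of 8.72, near the 8.30 of all genes.

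The differences pointed the same way in both treatments for all 439 called genes (2.12% of those tested), against 50.4% of all genes tested. These differences are the components of the average on which the genes were called, so the sign by itself is no separate result. Of the called genes, 354 had an unadjusted p below 0.05 under E2 and under E2+Pg alike. As these effects make up the average used for the call, this count is a description too. The median difference of the lower genes was −1.13 under E2 and −1.12 under E2+Pg, and that of the higher genes 0.889 and 0.835. Taken alone, the E2 mice gave 6 called genes and the E2+Pg mice 1, the channel gene Asic2. No gene passed the test of the difference between the genotype effects of the 2 treatments (limma, 0 called, 1937 genes or 9.37% at an unadjusted p below 0.05, smallest adjusted p = 0.471). Among the called genes 19 (4.33%) had such an unadjusted p. A call on the average favors genes with like effects in both treatments, so this lower share is no separate result. Without wild-type L72, 24 genes passed that test of the difference.

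**Figure D2:**
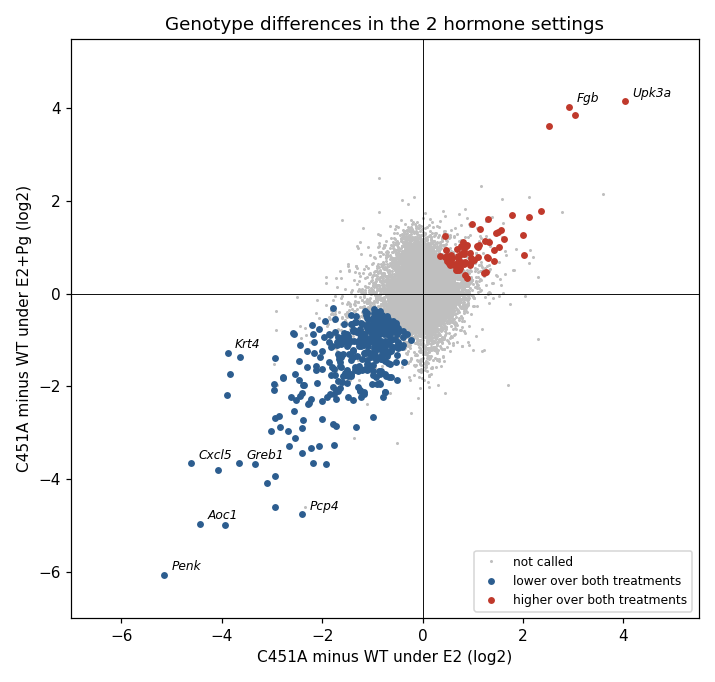
Difference between C451A-ERα and wild-type LCs (log2) under E2 (x axis) and under E2+Pg (y axis) for 20665 genes. Each point is 1 gene, with the 368 lower genes in blue, the 71 higher genes in red and genes not called in grey. All called genes lie at the lower left or the upper right.

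Mice on the same slide were also compared in pairs. Of the 439 called genes, 217 (49.4%) differed in the same direction in all 9 pairs and 178 in 8 of 9, against 583 of all genes (2.82%) in all 9. No called gene separated all 10 C451A-ERα from all 9 wild-type mice, which 4 of all genes (0.0194%) did. The 2 genotypes did not overlap within E2 for 58 called genes, against 727 of all genes (3.52%), and within E2+Pg for 120, against 538 of all genes (2.6%). They did not overlap within either treatment for 4 called genes (Tmem86a, 5031439G07Rik, Irx3 and Mgp), against 21 of all genes (0.102%). The pairs and ranges come from the arrays on which the genes were called. The higher shares among called genes, and the pairs given for single genes below, are therefore a description and no separate support. The number of calls depended on single mice. Leaving out 1 mouse at a time gave 106 to 641 lower and 9 to 240 higher genes, with the lowest counts without wild-type L67 or L52 and the highest without wild-type L72. Between 115 and 438 of the 439 genes were still called, and every one of them kept its direction. Without all mice of slide 1, of slide 2 or of slide 3, no gene passed (0 called, with 1633 to 2007 lower and 1243 to 1778 higher genes at an unadjusted p below 0.05), and all 439 again kept their direction. For the 17 genes given below by mouse, exact permutation tests of genotype within treatment (two-sided) gave p-values of 3.15e-05, the smallest they can give, for Irx3 to 0.00324 for Upk3a, and since these genes were taken from the called ones, that is no further support.

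Estrogen receptor targets did not move together. Of 30 tested targets, 4 were lower (13.3%, against 1.78% of all genes), 1 was higher and 25 did not pass, and the median difference of the list was 0.171. The lower genes were Greb1, Cxcl12, Wfs1 and Agr2, and the higher gene was Cited1, a transcriptional coregulator that binds ERα. Esr1 itself averaged 10.67 ± 0.86 in C451A-ERα LCs and 10.13 ± 0.56 in wild-type LCs (SD, n = 10 and 9; adjusted p = 0.27). The progesterone receptor gene Pgr averaged 10.4 ± 0.71 in C451A-ERα LCs and 10.8 ± 0.44 in wild-type LCs (adjusted p = 0.128). Areg, which encodes the growth factor amphiregulin, averaged 13.2 ± 0.99 in C451A-ERα LCs and 12.9 ± 0.78 in wild-type LCs (adjusted p = 0.69). None of these 3 genes passed.

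Greb1, a coactivator of ERα and among its best known targets (probe on chromosome 12 of mm9, 16678455 to 16678514), read 10.89, 5.38, 9.03, 7.04 and 8.58 in C451A-ERα LCs under E2, against 12.67, 12.39, 9.52 and 12.75 in wild-type LCs. Under E2+Pg, Greb1 read 6.05, 9.66, 6.44, 6.01 and 8.05 in C451A-ERα LCs, against 11.89, 11.50, 11.06, 11.02 and 9.05 in wild-type LCs. In each treatment the genotypes overlapped by 1 mouse on either side: C451A-ERα L4 lay above wild-type L72, C451A-ERα L18 above wild-type L21, and every other wild-type mouse lay above every C451A-ERα mouse of its treatment. Greb1 was 12.6-fold lower in C451A-ERα LCs (log2 difference −3.66, standard error 0.67, adjusted p = 0.0143), by −3.65 under E2 and −3.66 under E2+Pg, and it was lower in 9 of 9 slide pairs. The call was kept whichever mouse was left out.

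The other lower targets fell less. Cxcl12, a chemokine that attracts cells bearing CXCR4, was 3.17-fold lower, with 8.01 ± 0.66 in C451A-ERα LCs and 9.64 ± 1.01 in wild-type LCs (adjusted p = 0.0179). Agr2, a disulfide isomerase of the secretory pathway, was 4.05-fold lower (adjusted p = 0.0188), and Wfs1, a protein of the endoplasmic reticulum membrane, was 1.56-fold lower (adjusted p = 0.0287). Ccn5, a secreted matricellular protein that the target list holds under its former symbol and does not count, was 5.01-fold lower (adjusted p = 0.0141). Cxcl12 and Ccn5 were called whichever mouse was left out, Agr2 was lost without L67 or L52 (adjusted p at most 0.0506), and Wfs1 was kept in 13 of the 19 such fits.

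Cited1 went the other way. It read 15.58, 16.12, 16.38, 16.19 and 16.25 in C451A-ERα LCs under E2, against 14.23, 14.49, 16.07 and 15.00 in wild-type LCs. With E2+Pg, it read 15.37, 13.39, 14.48, 15.45 and 15.18 in C451A-ERα LCs, against 12.85, 12.53, 13.11, 13.52 and 14.93 in wild-type LCs. Wild-type L72 and L21 lay among the C451A-ERα mice of their treatments, and C451A-ERα L18 lay among the wild-type mice. Cited1 was 2.43-fold higher in C451A-ERα LCs (log2 difference 1.28, standard error 0.32, adjusted p = 0.0361) and higher in 9 of 9 slide pairs. The call is weak: it was kept in 6 of the 19 fits that left out 1 mouse, with an adjusted p of up to 0.0861, and was lost with slide as a random block (adjusted p = 0.0741).

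Of 20 progesterone receptor targets, 2 were higher (10%, against 0.344% of all genes) and none lower, at a median of 0.0263 over the list. The higher genes were Cited1 and the clock gene Per1 (1.88-fold, adjusted p = 0.0403). Wnt4, a ligand that acts on basal stem cells, averaged 11.6 ± 0.38 in C451A-ERα LCs and 10.9 ± 0.75 in wild-type LCs (adjusted p = 0.214). Tnfsf11, the gene of RANKL, averaged 5.18 ± 0.96 in C451A-ERα LCs and 5.84 ± 1.19 in wild-type LCs (adjusted p = 0.433). Under E2 it was well above background in 1 of 5 C451A-ERα and 0 of 4 wild-type mice. Under E2+Pg it was so in 2 of 5 and 4 of 5. The log2 difference was −0.005 under E2 and −1.11 under E2+Pg (adjusted p = 0.258). Tnfrsf11b, the gene of osteoprotegerin, a decoy receptor that binds RANKL, was 2.48-fold lower (adjusted p = 0.0259), and this call was kept in 11 of the 19 fits without 1 mouse. None of 19 tested genes of palmitoylation and caveolae, the machinery of receptors at the membrane, was called, at a median of −0.0123.

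The region around the transcription start was read for the called genes in RefSeq (GRCm38.p6, 250 bases before to 50 after the start), which gave a promoter for 256 lower and 52 higher genes. The palindromic estrogen response element GGTCANNNTGACC stood in 1 of 256 promoters of lower genes, in 0 of 52 of higher genes and in 4 of 12367 promoters of tested genes (0.0323%). The AP-1 motif TGANTCA stood in 13.7% of the promoters of lower genes and 15.4% of those of higher genes, against 6.95% of tested genes and 8.97% of all 27025 promoters. The GC box GGGCGG stood in 52.7% of lower, 59.6% of higher and 62.4% of tested genes. All motifs were searched on both strands, the 3 motifs were counted separately, and a match describes the letters only. The promoters below are those of Greb1, the estrogen target with the largest fall and without any of the 3 motifs here, of 3 called genes described in this section that carry an AP-1 motif, and of Pde10a, a phosphodiesterase gene and the only lower gene with the response element, at least 1.54-fold lower in C451A-ERα LCs (adjusted p = 0.0337, lost with slide as a fixed block at 0.0597). Capitals mark the AP-1 motif in Aoc1, Mmp10 and Fgb and the response element in Pde10a, and where a gene has 2 starts the one with the motif is shown.
Greb1 (chr12:16757190-16757489, minus strand): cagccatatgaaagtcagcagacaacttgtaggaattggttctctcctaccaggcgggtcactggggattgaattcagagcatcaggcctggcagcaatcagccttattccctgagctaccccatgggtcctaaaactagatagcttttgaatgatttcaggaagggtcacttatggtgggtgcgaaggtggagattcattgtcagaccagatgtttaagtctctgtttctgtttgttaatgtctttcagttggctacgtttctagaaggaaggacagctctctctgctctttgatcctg
Aoc1 (chr6:48904736-48905035, plus strand): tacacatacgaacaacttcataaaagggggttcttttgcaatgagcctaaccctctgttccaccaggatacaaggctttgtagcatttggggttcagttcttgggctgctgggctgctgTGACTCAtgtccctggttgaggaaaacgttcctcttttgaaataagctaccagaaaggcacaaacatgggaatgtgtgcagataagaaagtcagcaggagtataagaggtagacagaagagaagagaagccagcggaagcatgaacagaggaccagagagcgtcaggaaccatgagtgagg
Mmp10 (chr9:7502092-7502391, plus strand): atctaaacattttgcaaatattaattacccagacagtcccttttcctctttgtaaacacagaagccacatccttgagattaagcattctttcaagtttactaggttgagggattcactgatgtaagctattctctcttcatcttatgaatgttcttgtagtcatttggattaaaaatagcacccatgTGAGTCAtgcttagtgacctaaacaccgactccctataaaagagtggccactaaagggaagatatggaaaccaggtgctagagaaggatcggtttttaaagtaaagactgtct
Fgb (chr3:83049814-83050113, minus strand): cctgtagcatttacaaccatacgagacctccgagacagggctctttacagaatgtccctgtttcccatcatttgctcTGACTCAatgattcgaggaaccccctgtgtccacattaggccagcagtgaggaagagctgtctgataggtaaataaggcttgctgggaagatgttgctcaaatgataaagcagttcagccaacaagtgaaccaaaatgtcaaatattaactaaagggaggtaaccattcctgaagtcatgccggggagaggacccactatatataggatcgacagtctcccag
Pde10a (chr17:8849735-8850034, plus strand): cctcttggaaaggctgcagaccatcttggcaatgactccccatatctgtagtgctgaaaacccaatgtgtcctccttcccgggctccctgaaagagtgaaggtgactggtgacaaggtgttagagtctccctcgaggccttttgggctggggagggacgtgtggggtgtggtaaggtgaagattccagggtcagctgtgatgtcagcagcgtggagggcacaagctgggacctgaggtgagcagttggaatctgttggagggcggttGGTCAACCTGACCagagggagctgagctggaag

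Peptide hormones and neuropeptides held some of the largest falls. Penk (probe on chromosome 4, 4060735 to 4060794) read 12.65, 7.18, 8.75, 8.51 and 6.78 in C451A-ERα LCs under E2, against 16.72, 15.27, 7.80 and 15.89 in wild-type LCs. Under E2+Pg, Penk read 7.75, 14.66, 8.98, 7.87 and 8.22 in C451A-ERα LCs, against 17.21, 16.64, 15.78, 16.13 and 12.06 in wild-type LCs. Wild-type L72 lay within the C451A-ERα range under E2, and under E2+Pg C451A-ERα L18 lay above wild-type L21, while the remaining wild-type mice lay above every C451A-ERα mouse. The log2 difference was −5.63 (standard error 1.18, adjusted p = 0.0188), with 8 of 9 slide pairs lower, and the call was lost without L67 or L52 (adjusted p at most 0.0504).

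Calcb encodes a calcitonin gene-related peptide that dilates vessels (probe on chromosome 7, 121866534 to 121866593). Its signal was 9.34, 4.94, 5.74, 5.99 and 7.50 in C451A-ERα LCs under E2, against 12.63, 12.47, 5.77 and 12.20 in wild-type LCs. Under E2+Pg it was 5.17, 6.86, 5.23, 5.22 and 4.51 in C451A-ERα LCs, against 10.76, 10.40, 9.23, 10.54 and 5.08 in wild-type LCs. L72 and L21 read within the C451A-ERα range of their treatment, and the other 7 wild-type mice lay above all C451A-ERα mice of their treatment. Calcb was 15.2-fold lower in C451A-ERα LCs (adjusted p = 0.0251), and the call was lost without L58, L67, L50, L52, L57 or L47 (adjusted p at most 0.0665). Its probe was well above background in 4 of 5 C451A-ERα mice under E2 and 1 of 5 under E2+Pg.

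A list of peptide hormones drawn up after the values were seen had a median of −0.0754 and no higher gene. Of its 24 tested genes 7 were lower (29.2%, against 1.78% of all genes). Besides Penk and Calcb these were Nmu (neuromedin U, 5.03-fold, adjusted p = 0.0298), Npb (neuropeptide B, 2-fold, adjusted p = 0.0188), Nppb (a natriuretic peptide, 2.92-fold, adjusted p = 0.0483), Pthlh (a parathyroid hormone-like peptide that acts on the mammary mesenchyme, 3.32-fold, adjusted p = 0.0337) and Pcsk1 (a convertase that cleaves prohormones, 2.40-fold, adjusted p = 0.0291). Npb was called whichever mouse was left out, but not with the mean of its passing probes or without slide 5. Nmu was kept in 10 of the 19 such fits, Pcsk1 in 7, Pthlh in 6 and Nppb in 3, and with slide as a fixed block Pthlh (0.0649) and Nppb (0.0717) did not pass.

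Some chemokines fell as well. Cxcl5, which attracts neutrophils (probe on chromosome 5, 91190490 to 91190549), read 11.64, 7.82, 9.36, 8.21 and 9.65 in C451A-ERα LCs under E2, against 14.99, 16.09, 9.37 and 15.38 in wild-type LCs. Under E2+Pg, Cxcl5 read 7.02, 9.49, 10.52, 9.54 and 7.23 in C451A-ERα LCs, against 13.18, 13.57, 13.01, 13.73 and 8.64 in wild-type LCs. Again only L72 and L21 among wild-type mice reached the C451A-ERα range. Cxcl5 was 17.3-fold lower (log2 difference −4.12, standard error 0.86, adjusted p = 0.0188) and lower in 9 of 9 slide pairs, and the call was lost without L67 or L52 (adjusted p at most 0.0506).

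Of 37 chemokines and interleukins, listed after their values were seen, 15 were lower at an unadjusted p below 0.05, which 9.48% of all genes were. By the call 5 were lower (13.5%, against 1.78% of all genes) and none higher, with Cxcl5 among the 5. The others were Cxcl12, Cxcl15 (a chemokine of epithelia, 5.06-fold, adjusted p = 0.0187), Ppbp (a platelet chemokine, at least 3.92-fold, adjusted p = 0.0218) and Il18 (a cytokine of the interleukin family released by epithelia, 2.68-fold, adjusted p = 0.0188). Ppbp was not well above background in 1 of the C451A-ERα groups, so its fold is a lower bound. Cxcl15 was called whichever mouse was left out, Il18 was lost without L67 or L52, and Ppbp without L67, L50 or L52 (adjusted p at most 0.0586). Markers of immune cells gave no call among 16 tested, and their summed level was 12.53 to 12.89 in C451A-ERα and 12.40 to 12.95 in wild-type LCs under E2, and 12.30 to 12.99 in C451A-ERα and 11.84 to 14.20 in wild-type LCs under E2+Pg.

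Growth factors and their antagonists showed few shared changes. In TGFβ and BMP signaling 3 of 45 genes were lower (6.67%, against 1.78% of all genes) and none higher (median −0.0205). These were the ligand Tgfb1 (1.57-fold, adjusted p = 0.0222), the BMP family member Bmp3 (3.26-fold, adjusted p = 0.0269) and Fstl1, a follistatin-like secreted glycoprotein (2.93-fold, adjusted p = 0.0222). Tgfb3, another TGFβ ligand, averaged 12.4 ± 0.81 in C451A-ERα LCs and 13.2 ± 0.5 in wild-type LCs and did not pass (adjusted p = 0.207). In Wnt signaling 2 of 37 genes were lower (5.41%) and 1 higher (2.7%, against 0.344% of all genes), at a median of −0.00957. Fzd2 (2.90-fold lower, adjusted p = 0.0141) and Fzd4 (2.05-fold higher, adjusted p = 0.0477) encode receptors, and Dkk3 (6.54-fold lower, adjusted p = 0.0255) a secreted protein of the Dickkopf family. In the EGF family the ligand Epgn alone passed among 15 genes (2.70-fold lower, adjusted p = 0.0187). No gene of 14 in the FGF family or of 23 in Notch signaling was called.

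Of these, Fzd2 and Epgn were called whichever mouse was left out. Tgfb1 was lost without L67, L52 or L47 (adjusted p at most 0.0603), Fstl1 without L67, L50 or L52 (0.0589), Dkk3 without L56, L67, L52, L57 or L47 (0.0643) and Bmp3 without L58, L56, L67, L52, L57 or L62 (0.0632). Fzd4 was kept in 4 of the 19 fits and lost with slide as a fixed block (0.0527).

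Several chains of the laminins, the cross-shaped glycoproteins of the basement membrane on which the epithelium rests, were lower, as were some collagens. Of 56 genes of the extracellular matrix and basement membrane, 7 were lower (12.5%, against 1.78% of all genes) and 2 higher (3.57%, against 0.344%), at a median of −0.0829. Lamb1, a β chain found in many basement membranes (probe on chromosome 12, 32014411 to 32014470), read 10.80, 9.19, 9.88, 9.49 and 9.94 in C451A-ERα LCs under E2, against 12.41, 12.26, 9.82 and 12.22 in wild-type LCs. Under E2+Pg, Lamb1 read 9.56, 10.48, 9.86, 9.57 and 9.26 in C451A-ERα LCs, against 11.39, 11.32, 10.82, 10.95 and 10.02 in wild-type LCs. L72 lay within the C451A-ERα range and L21 below C451A-ERα L18, and all other wild-type mice lay above all C451A-ERα mice of their treatment. Lamb1 was 2.76-fold lower (adjusted p = 0.0205) and lower in 9 of 9 slide pairs, and the call was lost without L67 or L52 (adjusted p at most 0.0526).

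Other laminin chains followed. Lamb3 was 2.07-fold lower, with 9.85 ± 0.37 in C451A-ERα LCs and 10.9 ± 0.65 in wild-type LCs (adjusted p = 0.0187). Lamc1 was 1.97-fold lower, with 10.8 ± 0.3 in C451A-ERα LCs and 11.8 ± 0.51 in wild-type LCs (adjusted p = 0.0155). Both were called whichever mouse was left out.

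Among collagens, the microfibrillar Col6a3 was 3.68-fold lower (adjusted p = 0.0188) in every such fit, Col6a1 was 1.99-fold lower (adjusted p = 0.0435, kept in 5 of 19) and the basement membrane chain Col4a4 at least 1.87-fold lower (adjusted p = 0.0395, kept in 6 of 19 and lost with slide as a fixed block at 0.0799). Fibronectin, Fn1, averaged 11 ± 0.74 in C451A-ERα LCs and 12.2 ± 1.45 in wild-type LCs and did not pass (adjusted p = 0.106). Both higher genes of the list were fibrinogen chains, described with the higher genes. Of 13 fibroblast markers Col6a3 alone was called, and their summed level was 13.45 to 15 in C451A-ERα and 14.49 to 14.77 in wild-type LCs under E2, and 13.75 to 14.91 in C451A-ERα and 13.59 to 14.79 in wild-type LCs under E2+Pg. The part of fibroblast RNA in these differences was not tested.

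Some secreted proteases and their inhibitors were lower too. Of 49 genes of the list 4 were lower (8.16%, against 1.78% of all genes) and none higher, at a median of −0.112. Klk6, a kallikrein that cleaves matrix proteins (probe on chromosome 7, 51086977 to 51087036), read 5.26, 5.17, 4.75, 5.74 and 5.97 in C451A-ERα LCs under E2, against 8.74, 8.73, 6.36 and 9.10 in wild-type LCs. Under E2+Pg, Klk6 read 5.54, 5.02, 6.17, 5.58 and 6.53 in C451A-ERα LCs, against 9.09, 9, 8.46, 9.27 and 6.27 in wild-type LCs. The genotypes did not overlap under E2, and under E2+Pg L21 was the only wild-type mouse in the C451A-ERα range. Klk6 was 6.71-fold lower (log2 difference −2.75, standard error 0.39, adjusted p = 0.0104), a call kept whichever mouse was left out.

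The metalloproteinases Mmp10 (stromelysin, 4.82-fold, adjusted p = 0.021), Mmp23 (1.69-fold, adjusted p = 0.0187) and Adam8 (4.81-fold, adjusted p = 0.0228) were lower. The secreted serine protease Htra1, outside the list, was 5.31-fold lower (adjusted p = 0.0188). So were inhibitors: Slpi, an inhibitor of leukocyte elastase, was 7.98-fold lower (adjusted p = 0.0376), and the Kazal-type inhibitor Spink2 was 14.2-fold lower (adjusted p = 0.0228). The related Spink1 was at least 1.66-fold higher (adjusted p = 0.0315). Mmp23 was called whichever mouse was left out, Mmp10 and Htra1 were lost without L67 or L52, Spink2 without L67, L52 or L57 and Adam8 without L67, L50, L52 or L57 (adjusted p at most 0.0618). Slpi was kept in 5 of 19 such fits and Spink1 in 11, and neither passed with slide as a fixed block (0.0583 and 0.0704).

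**Figure D3:**
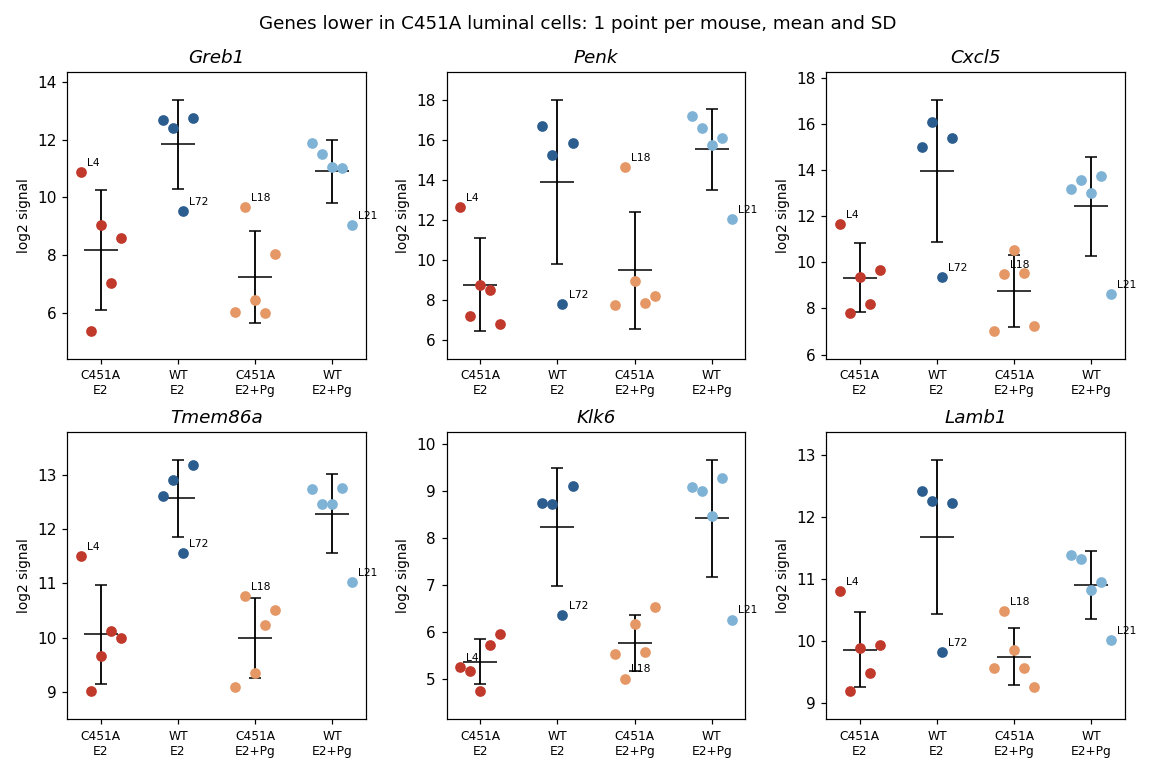
Log2 signal of 6 genes that were lower in C451A-ERα LCs. Each point is 1 mouse, lines give the mean and bars the SD of each group (n = 5, 4, 5 and 5 from left to right). In Penk and Cxcl5, wild-type mice L72 and L21 lie below the other wild-type mice, which lie at 13.01 or higher.

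Genes of squamous and cornified epithelium, of the kind that forms the skin surface, had a median of −0.349. Of 44 genes 5 were lower (11.4%, against 1.78% of all genes) and none higher. The keratin Krt4 of stratified epithelia was 5.68-fold lower (adjusted p = 0.0377), Lor (loricrin, a cornified envelope protein) 2.45-fold (adjusted p = 0.0205), the lipoxygenase Alox15 2.34-fold (adjusted p = 0.0155), Gsdma, a pore-forming gasdermin, 1.93-fold (adjusted p = 0.0388) and the kallikrein Klk7 at least 1.93-fold (adjusted p = 0.0477). Outside the list, the keratin Krt15 was 6.35-fold lower (adjusted p = 0.0352) and Alox12, another lipoxygenase, 2.28-fold (adjusted p = 0.0184). The median of the list was −0.682 under E2 and 0.0853 under E2+Pg. Of its called genes, Alox15 (log2 difference −1.95 under E2 and −0.59 under E2+Pg) and Krt4 (−3.89 and −1.28) fell more under E2. Lor (−0.87 and −1.67), Gsdma (−0.36 and −1.47) and Klk7 (−0.89 and −1.01) fell more under E2+Pg.

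Alox15 and Alox12 were called whichever mouse was left out, and Lor was lost without L67 or L52 (adjusted p at most 0.0525). Krt4, Krt15 and Gsdma were each kept in 5 of 19 such fits and Klk7 in 4, and none of the 4 passed with slide as a fixed block (0.0605 to 0.0897). Of 10 epidermis markers 2 were called lower, Lor and the keratin Krt77 (2.44-fold, adjusted p = 0.0244, lost without L67, L50, L52 or L57), while Krt1 averaged 5.95 in C451A-ERα and 5.91 in wild-type LCs and Krt10 8.61 and 8.60. The summed level of the epidermis markers was 11.50 to 13.22 in C451A-ERα and 12.54 to 13.05 in wild-type LCs under E2, and 13.09 to 14.89 in C451A-ERα and 12.71 to 14.10 in wild-type LCs under E2+Pg, and their part in these differences was not tested.

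Of 19 genes of epithelial-mesenchymal transition 2 were lower (median −0.0974), and they act in opposite ways in that transition. Snai1, a repressor of E-cadherin, was 3.17-fold lower (adjusted p = 0.0253). Its lowest, median and highest values were 6.80, 7.28 and 10.2 in C451A-ERα LCs and 8.35, 9.33 and 10.4 in wild-type LCs. These ranges overlapped. The log2 difference was −2.58 under E2, where the genotypes did not overlap, and −0.85 under E2+Pg. With E2+Pg, C451A-ERα L63 (10.25) lay above every wild-type mouse (8.35 to 9.33). The difference between the treatments did not pass (limma, unadjusted p = 0.0182, adjusted p = 0.471). Grhl3, a grainyhead factor of epithelial differentiation, was 2.14-fold lower (adjusted p = 0.0141). Its lowest, median and highest values were 6.03, 6.6 and 7.32 in C451A-ERα LCs and 7.05, 7.77 and 8.61 in wild-type LCs. Grhl3 was called whichever mouse was left out, and Snai1 was lost without L58, L67, L50 or L52 (adjusted p at most 0.0678).

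Genes of the interferon response had a median of −0.592 over 37 genes, with 4 lower (10.8%, against 1.78% of all genes) and none higher. At an unadjusted p below 0.05, 21 were lower (9.48% of all genes). Usp18, a protease that removes the ubiquitin-like modifier ISG15, was 2.35-fold lower (adjusted p = 0.0188), and the antiviral proteins Bst2 (2.19-fold, adjusted p = 0.0303), Mx1 (2.80-fold, adjusted p = 0.0466) and Rsad2 (3.34-fold, adjusted p = 0.0483) passed close to the threshold. The median of the list was −1.01 under E2 and −0.218 under E2+Pg. Usp18 was called whichever mouse was left out. Bst2 was kept in 8 and Mx1 and Rsad2 in 4 of the 19 such fits, and with slide as a fixed block Bst2 (0.0637), Mx1 (0.0887) and Rsad2 (0.101) did not pass.

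Receptors and intracellular signaling components that were lower included Jak2, the kinase that carries the signal of prolactin and growth hormone receptors (probe on chromosome 19, 29386381 to 29386440). Jak2 read 10.12, 9.56, 9.90, 9.68 and 9.80 in C451A-ERα LCs under E2, against 11.07, 11.16, 10.18 and 11.07 in wild-type LCs. Under E2+Pg, Jak2 read 9.67, 9.38, 9.85, 9.47 and 9.63 in C451A-ERα LCs, against 10.78, 10.39, 10.33, 10.13 and 9.69 in wild-type LCs. The genotypes did not overlap under E2, where L72 was the lowest wild-type mouse, and under E2+Pg L21 alone lay within the C451A-ERα range. Jak2 was 1.80-fold lower (log2 difference −0.85, standard error 0.15, adjusted p = 0.0141) and lower in 9 of 9 slide pairs, a call kept whichever mouse was left out. In the JAK-STAT list Socs2, a feedback inhibitor of this pathway, was the only other of 37 genes called (2.62-fold lower, adjusted p = 0.0188, lost without L67 at 0.0502).

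Among other receptors, Il5ra, the interleukin receptor of eosinophils, was 6.99-fold lower (adjusted p = 0.0159) and Mas1, a receptor for an angiotensin fragment, 3.75-fold lower (adjusted p = 0.0141). Of 35 channels, guidance molecules and related neural genes 4 were lower (11.4%, against 1.78% of all genes). These were the acid-sensing channel Asic2 (2.34-fold, adjusted p = 0.0141), the Slit receptor Robo2 (2.76-fold, adjusted p = 0.0155), the secreted chloride channel regulator Clca1 (2.05-fold, adjusted p = 0.0205) and the semaphorin Sema3c (1.69-fold, adjusted p = 0.0447). For Asic2 the log2 difference was −0.50 under E2 and −1.87 under E2+Pg. Pcp4, a small protein that binds calmodulin, and Ptpn5, a tyrosine phosphatase of neurons, were 12.6-fold (adjusted p = 0.0148) and 12.3-fold lower (adjusted p = 0.0187). Gja1, a connexin of gap junctions, was 2.28-fold lower (adjusted p = 0.0462). All were called whichever mouse was left out except Sema3c and Gja1, each kept in 4 of 19 such fits, and Gja1 did not pass with slide as a fixed block (0.0749).

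Several of the steepest falls were in genes of metabolism and transport. Aoc1, a diamine oxidase that degrades histamine and putrescine (probe on chromosome 6, 48859115 to 48859174), read 12.64, 5.37, 10.79, 6.39 and 7.65 in C451A-ERα LCs under E2, against 13.94, 13.96, 9.84 and 14.25 in wild-type LCs. Under E2+Pg, Aoc1 read 5.18, 10.30, 6.61, 8.52 and 5.34 in C451A-ERα LCs, against 12.25, 11.95, 12.61, 13.13 and 10.85 in wild-type LCs. The genotypes did not overlap under E2+Pg, and under E2 wild-type L72 lay below C451A-ERα L4 and L27. Aoc1 was 26.3-fold lower (log2 difference −4.72, standard error 0.91, adjusted p = 0.016) and lower in 9 of 9 slide pairs, a call kept whichever mouse was left out.

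Slc2a3, a glucose transporter of high affinity (probe on chromosome 6, 122678075 to 122678134), read 6.6, 4.62, 6.07, 5.13 and 5.03 in C451A-ERα LCs under E2, against 10.62, 8.73, 5.23 and 10.74 in wild-type LCs. Under E2+Pg, Slc2a3 read 4.95, 7.97, 5.19, 4.87 and 4.90 in C451A-ERα LCs, against 10.72, 10.54, 10.06, 8.63 and 6.27 in wild-type LCs. L72 lay in the C451A-ERα range and C451A-ERα L18 above L21, and otherwise the genotypes did not overlap. Slc2a3 was 11.4-fold lower (adjusted p = 0.0178) and Slc2a4, the insulin-regulated transporter, 1.77-fold lower (adjusted p = 0.0178), both whichever mouse was left out. The Slc2a3 probe was well above background in 2 of 5 C451A-ERα mice under E2 and 1 of 5 under E2+Pg. Its fold therefore rests in part on signal near background.

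Tph1, the rate-limiting enzyme of serotonin synthesis outside the brain (probe on chromosome 7, 53902606 to 53902665), read 14.61, 9.52, 12.69, 11.51 and 11.87 in C451A-ERα LCs under E2, against 14.88, 14.59, 12.34 and 15.28 in wild-type LCs. Under E2+Pg, Tph1 read 8.55, 13.42, 11.02, 10.38 and 7.93 in C451A-ERα LCs, against 13.79, 13.78, 13.87, 14.13 and 12.36 in wild-type LCs. C451A-ERα L4 lay above wild-type L72 and L50, C451A-ERα L27 above L72 and C451A-ERα L18 above wild-type L21, and the other wild-type mice lay above the other C451A-ERα mice of their treatment. Tph1 was 7.02-fold lower (adjusted p = 0.0316) and lower in 9 of 9 slide pairs. The call was kept in 6 of the 19 fits without 1 mouse (adjusted p at most 0.0763) and lost with slide as a fixed block (0.0575).

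Tmem86a, a lysoplasmalogenase of the endoplasmic reticulum (probe on chromosome 7, 54309883 to 54309942), read 11.51, 9.01, 9.66, 10.12 and 10.00 in C451A-ERα LCs under E2, against 12.62, 12.91, 11.56 and 13.19 in wild-type LCs. Under E2+Pg, Tmem86a read 9.09, 10.77, 9.35, 10.24 and 10.51 in C451A-ERα LCs, against 12.74, 12.46, 12.47, 12.76 and 11.02 in wild-type LCs. The genotypes did not overlap in either treatment, though C451A-ERα L4 (11.51) and wild-type L72 (11.56) lay side by side under E2. Tmem86a was 5.27-fold lower (log2 difference −2.40, standard error 0.32, adjusted p = 0.0104), a call kept whichever mouse was left out.

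Other enzymes were lower too. Gpx3, a secreted glutathione peroxidase, was 7.94-fold lower (adjusted p = 0.0188, lost without L67 or L52 at 0.0502 or less). Its level was 12.6 ± 1.75 in C451A-ERα LCs and 15.6 ± 0.96 in wild-type LCs. G6pdx, the entry enzyme of the pentose phosphate pathway, was 1.77-fold lower (adjusted p = 0.0141), and its probe may also bind the retrogene G6pd2. Enpp2, autotaxin, which makes lysophosphatidic acid, was 5.36-fold lower (adjusted p = 0.0259, kept in 12 of 19 fits). Acod1, the enzyme that makes itaconate, was at least 1.71-fold lower (adjusted p = 0.0167), and G6pdx and Acod1 were called whichever mouse was left out.

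Among the genes with the smallest p were also Ddit4l, an inhibitor of mTOR signaling (3.24-fold lower), Dbn1, the actin-binding drebrin (2.51-fold lower), and C2, a complement protease (3.01-fold lower), with adjusted p of 0.0108, 0.0108 and 0.0141. All 3 kept their calls whichever mouse was left out. Members of near-identical families must be read with care, since their probes may bind several copies. The prolactin family genes Prl3d1 and Prl3d2 were 3.38-fold and at least 3.38-fold lower, and the vomeronasal receptor gene Vmn1r33 was 3.95-fold lower (adjusted p = 0.0188, 0.0141 and 0.0196). Prl3d2 was not well above background in any C451A-ERα mouse. This held for 12 of the 368 lower genes, among them LOC433198 (at least 2.22-fold lower) and Gm4610 (at least 2.01-fold lower). No function is annotated in the sources used here for these last 2 or for Gm4847, which was 22.5-fold lower (adjusted p = 0.0187). The Gm4847 probe was well above background in 2 of 5 C451A-ERα mice under each treatment. Dapl1, a protein expressed in differentiating epithelia, was 11.1-fold lower (adjusted p = 0.0368), kept in 5 of 19 fits without 1 mouse and lost with slide as a fixed block (0.0583).

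The higher genes were fewer and their folds smaller, but a few stood out. Fgb, the β chain of fibrinogen (probe on chromosome 3, 82846334 to 82846393), read 14.19, 16.04, 15.51, 16.28 and 16.51 in C451A-ERα LCs under E2, against 11.20, 11.99, 15.69 and 12.26 in wild-type LCs. Under E2+Pg, Fgb read 16.23, 10.53, 14.87, 15.75 and 15.09 in C451A-ERα LCs, against 8.38, 8.54, 10.21, 10.76 and 14.44 in wild-type LCs. Wild-type L72 lay among the C451A-ERα mice, C451A-ERα L18 lay among the wild-type mice, and wild-type L21 stood just below the other C451A-ERα mice. Fgb was 11.4-fold higher in C451A-ERα LCs (log2 difference 3.51, standard error 0.83, adjusted p = 0.0291) and higher in 9 of 9 slide pairs. The γ chain, Fgg, was 8.60-fold higher (adjusted p = 0.0362) and also higher in 9 of 9 pairs. Fgb was kept in 6 and Fgg in 5 of the 19 fits without 1 mouse, and with slide as a random block neither passed (0.0567 and 0.0636).

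Upk3a, a uroplakin of the apical membrane plaques of the bladder (probe on chromosome 15, 84851819 to 84852720), read 13.06, 14.07, 15.00, 14.72 and 15.12 in C451A-ERα LCs under E2, against 7.57, 8.68, 15.40 and 9.79 in wild-type LCs. Under E2+Pg, Upk3a read 14.56, 11.01, 13.64, 15.02 and 12.69 in C451A-ERα LCs, against 6.85, 6.67, 8.31, 9.73 and 14.60 in wild-type LCs. L72 and L21 were as high as C451A-ERα mice, and all other wild-type mice were below all C451A-ERα mice of their treatment. Upk3a had the largest rise, 17.1-fold (log2 difference 4.10, standard error 1.01, adjusted p = 0.0342), with 7 of 9 slide pairs higher. The call was kept in 5 of the 19 fits without 1 mouse (adjusted p at most 0.084) and lost with slide as a random block (0.0681).

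Mgp, a matrix protein that inhibits calcification (probe on chromosome 6, 136821125 to 136821184), read 9.95, 10.99, 10.37, 11.63 and 11.11 in C451A-ERα LCs under E2, against 9.66, 9.36, 9.76 and 9.21 in wild-type LCs. Under E2+Pg, Mgp read 10.63, 9.97, 10.52, 10.40 and 9.98 in C451A-ERα LCs, against 8.74, 9.86, 9.34, 9.96 and 9.80 in wild-type LCs. The genotypes did not overlap in either treatment, though C451A-ERα L18 (9.97) and wild-type L47 (9.96) lay side by side under E2+Pg. Mgp was 2.03-fold higher (adjusted p = 0.0187) and higher in 9 of 9 slide pairs, a call kept whichever mouse was left out.

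Irx3, a homeobox transcription factor (probe on chromosome 8, 94322476 to 94322535), read 12.17, 12.17, 11.92, 11.91 and 11.82 in C451A-ERα LCs under E2, against 11.54, 11.50, 11.48 and 11.39 in wild-type LCs. Under E2+Pg, Irx3 read 12.38, 12.82, 12.49, 12.34 and 12.71 in C451A-ERα LCs, against 11.72, 12.08, 11.92, 11.40 and 12.32 in wild-type LCs. The genotypes did not overlap in either treatment, and L21 was the highest wild-type mouse under E2+Pg. The difference was small, 1.51-fold (adjusted p = 0.0141), and close to the fold threshold, which it missed without L4, L58, L18, L63, L57 or L47, while its adjusted p remained at most 0.0451.

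Nuclear receptors were among the higher genes. Nr3c2, the mineralocorticoid receptor (probe on chromosome 8, 79768704 to 79768763), read 8.94, 9.91, 9.69, 10.22 and 9.96 in C451A-ERα LCs under E2, against 7.62, 8.10, 9.72 and 8.21 in wild-type LCs. Under E2+Pg, Nr3c2 read 9.53, 8.88, 8.33, 9.52 and 9.36 in C451A-ERα LCs, against 7.31, 7.50, 8.23, 8.13 and 8.85 in wild-type LCs. L72 and L21 overlapped with C451A-ERα mice, and the other wild-type mice were lower than all C451A-ERα mice of their treatment. Nr3c2 was 2.33-fold higher (adjusted p = 0.0206) and Esrrg, an orphan receptor related to ERα, 2.74-fold higher (adjusted p = 0.0227), both in 9 of 9 slide pairs. Nr3c2 was lost without L67 or L52 and Esrrg without L67, L50 or L52 (adjusted p at most 0.0609).

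Lalba, the milk protein α-lactalbumin, was 2.76-fold higher (adjusted p = 0.0218) and the only one of 20 milk and alveolar genes called. It was lost without L67 or L52 (adjusted p at most 0.0587). Kcnh1, a voltage-gated potassium channel, was higher by 3.47 on the log2 scale (adjusted p = 0.0367), Pir, a nuclear iron-binding protein, was 3.66-fold higher (adjusted p = 0.0421), and Prkar2b, a regulatory subunit of protein kinase A, was 2.64-fold higher (adjusted p = 0.0421). Of the 19 fits without 1 mouse, these calls were kept in 5, 4 and 5, and with slide as a random block none of the 3 passed (0.0612, 0.0787 and 0.0788). Zfp979, a zinc finger gene, was 4.14-fold higher (adjusted p = 0.0299, kept in 8 fits).

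Steadier but smaller rises were seen in Slc16a5, a monocarboxylate transporter (2.66-fold, adjusted p = 0.0187), Zfp36l2, a protein that destabilizes AU-rich messenger RNA (1.78-fold, adjusted p = 0.0178), Adgrg1, an adhesion G protein-coupled receptor (1.57-fold, adjusted p = 0.0178), Syne3, a protein of the nuclear envelope (1.92-fold, adjusted p = 0.0178), and the noncoding RNA Snhg15 (1.63-fold, adjusted p = 0.0141). These 5 were called whichever mouse was left out.

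**Figure D4:**
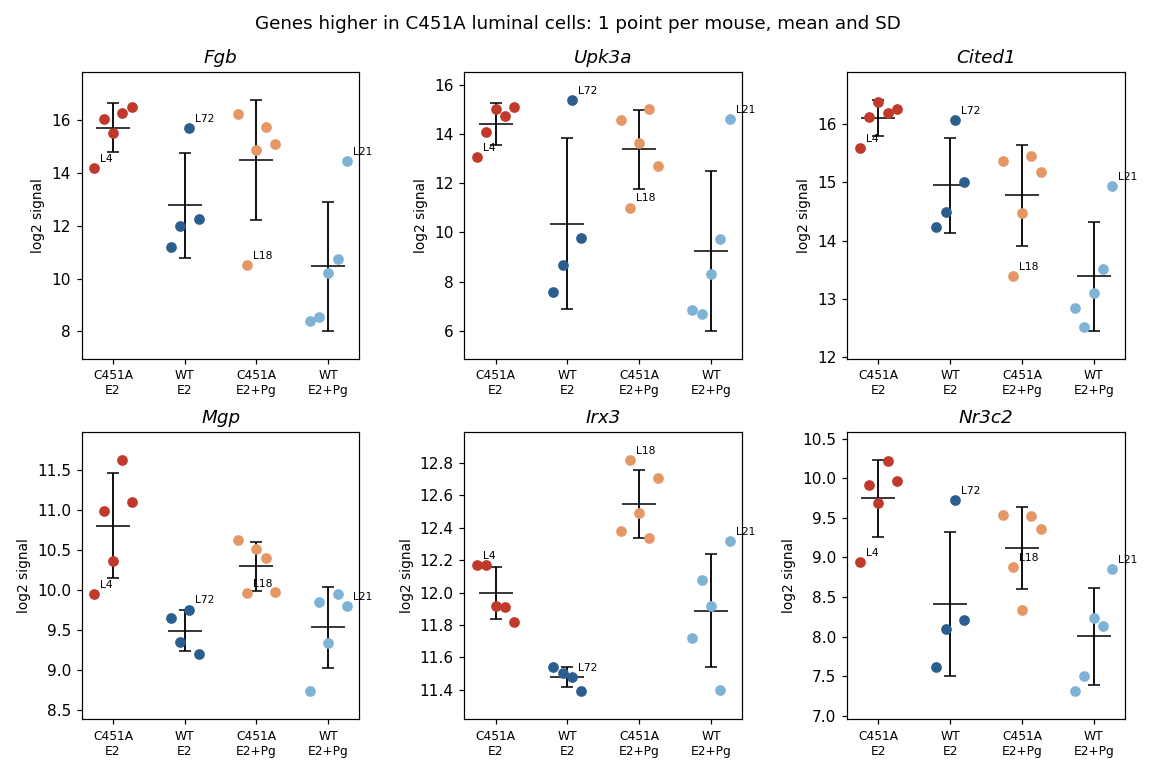
Log2 signal of 6 genes that were higher in C451A-ERα LCs. Each point is 1 mouse, lines give the mean and bars the SD of each group (n = 5, 4, 5 and 5 from left to right). In Fgb and Upk3a wild-type L72 and L21 are near C451A-ERα levels, and in Mgp and Irx3 the genotypes do not overlap within either treatment.

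Most markers of the sorted cell types were not called. None of 13 pan-luminal markers was (median −0.0786). Cd24a, which encodes an antigen of the sort, averaged 14.62 in C451A-ERα and 15.12 in wild-type LCs, a difference with an adjusted p of 0.0271 that did not reach the fold threshold. Krt8 averaged 17.4 in C451A-ERα and 17.6 in wild-type LCs, Krt18 18.1 in both and Epcam 13.6 in C451A-ERα and 13.4 in wild-type LCs. The summed pan-luminal level, the log2 of the added signals, was 19.20 to 19.61 in C451A-ERα and 19.61 to 19.76 in wild-type LCs under E2, and 19.10 to 19.62 in C451A-ERα and 19.30 to 19.55 in wild-type LCs under E2+Pg. None of 12 luminal progenitor markers was called (median −0.0559). Of 14 markers of hormone-sensing LCs 3 were lower (Tph1, Cxcl15 and the surface glycoprotein Prom1, 1.60-fold with an adjusted p of 0.0362) and Cited1 was higher. Foxa1, a pioneer factor of these cells, averaged 12.5 in C451A-ERα and 12.2 in wild-type LCs (adjusted p = 0.409), and the receptor Prlr 13.9 in C451A-ERα and 13.4 in wild-type LCs (adjusted p = 0.314). Prom1 was kept in 7 of the 19 fits without 1 mouse and lost with slide as a fixed block (0.0664).

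Of 16 basal and myoepithelial markers none was called (median 0.00284), and their summed level was 15.09 to 15.59 in C451A-ERα and 15.34 to 15.72 in wild-type LCs under E2, and 15.16 to 15.66 in C451A-ERα and 14.91 to 15.63 in wild-type LCs under E2+Pg. None of the markers of pericytes (7 tested), endothelial cells (9), immune cells (16), adipocytes (8), erythrocytes (5) or skeletal muscle and nerve (10) was called. The defining endothelial marker Pecam1 averaged 5.91 in C451A-ERα and 6.03 in wild-type LCs. The part of these cell types in the genotype differences was not tested.

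Cell cycle genes had the lowest median of the lists of gene programs, −0.662 over 38 genes of which 36 were negative, but none was called. Their median was 0.0649 under E2 and −1.37 under E2+Pg. Integrins, cadherins and desmosomal genes (33), genes of the unfolded protein response (26) and immediate early genes, which respond to cell dissociation (30), gave no call, at medians of −0.0799, −0.0136 and 0.234. Of 20 genes that the study names from these arrays or its quantitative PCR panel, 8 were lower and 1 higher. As the study chose them on these same samples, this count is not independent evidence.

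**Figure D5:**
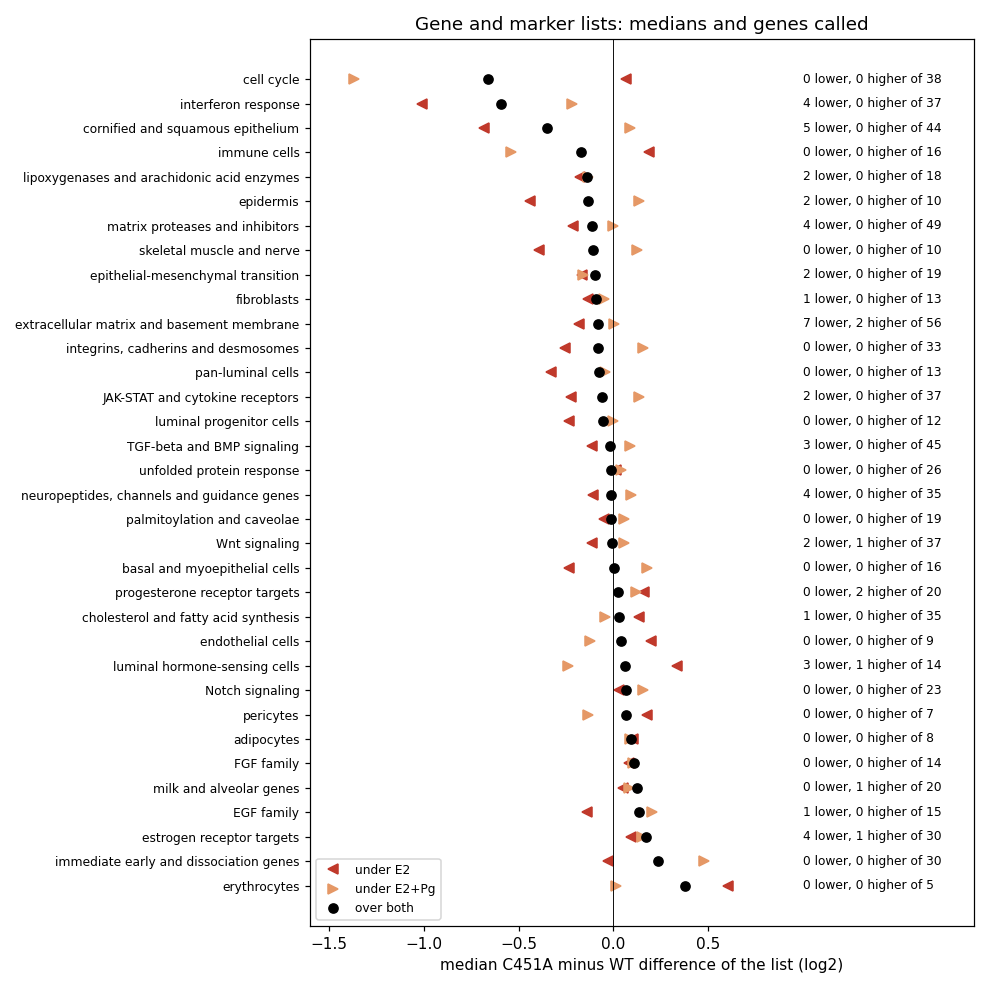
Median difference (log2) between C451A-ERα and wild-type LCs for the lists of gene programs and cell markers, under E2, under E2+Pg and over both treatments, with the number of genes called lower and higher of those tested at the right. Of the lists plotted, the cell cycle, interferon and cornified epithelium lists have the lowest medians (−0.662, −0.592 and −0.349).

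The genotype effect can be set beside that of progesterone, estimated over both genotypes by the same model. With E2+Pg 442 genes (2.14%) were lower and 324 (1.57%) higher than with E2 alone. Both effects come from the same 19 arrays, so that their values for single genes are given side by side and no overlap of the calls is counted. G6pdx, Usp18 and Epgn were lower in C451A-ERα LCs and with E2+Pg (log2 differences for E2+Pg of −0.71, −1.32 and −1.27). Cited1 was higher in C451A-ERα LCs and lower with E2+Pg (−1.44). Greb1 differed between treatments by −0.93, which did not pass (adjusted p = 0.486), and Penk by 1.16 (adjusted p = 0.665).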

How the data were processed

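LC RNA of 19 mice was hybridized to Agilent single-color mouse arrays, 1 array a mouse. The deposited scanner files hold spot signal intensity, which the authors obtained with Agilent Feature Extraction 10.10.1.1, with flags for spots well above background. A deposited value table is in log2 units. Its values were filtered, corrected for washing bath and serial labeling and quantile normalized by the authors, and it served as an alternative only. The labels gave genotype, treatment and mouse number, and the array identifier gave the slide. The baths and labeling series are not given in the sources used here, so the slide is the only batch examined.

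Median signals were log2 transformed and quantile normalized with limma 3.58.1 in R 4.3.3. Outlier spots (1370) were left out and no spot was saturated. A probe had to be well above background on 4 or more of the 19 arrays, and a gene was read by its brightest passing probe (20665 genes, of which 7253 had further passing probes). Of 56605 probes, 32994 were named by their accession in RefSeq and 12765 kept the name in the file. Each array had 26471 to 31258 probes well above background. Probe coordinates are those of the files (mm9).

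A limma model with genotype and treatment was fitted to all arrays (16 residual degrees of freedom). A second model with 4 group means gave the effects within each treatment and their difference. The first model was tested on simulated data with known genotype changes, and the second was not. Where a probe was not well above background in a whole group, the fold is a lower bound, taken against the lowest signal well above background and never set above the fitted fold. A gene is named where the study names it, where it is among the called genes with the largest change or smallest p, or where it is a called member of a list, which gave 96 genes. Not all of them are reported here. Another 42 were picked with their values already in view. The members of the lists and the tests were chosen with earlier results of these data known. Alternatives were other blocks, weights, normalizations, filters, probe rules and thresholds, and leaving out each mouse and each slide.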

Additional observations from a re-analysis of the deposited data

Results flagged for a closer look

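In each of the 4 groups, the 17 genes given by mouse were searched for 1 value that lay farther from the rest of its group than the critical value of Dixon's test allows. Of 68 sets of values examined, 17 held such a mouse. Chance gives about 1 in 20 (0.05), and the sets are not independent, since the same mice recur.

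Wild-type L72 under E2 was low in 8 genes. It read 9.52 for Greb1, 7.8 for Penk, 9.37 for Cxcl5, 5.77 for Calcb, 6.36 for Klk6, 9.82 for Lamb1, 10.18 for Jak2 and 9.84 for Aoc1. Wild-type L21 under E2+Pg was low in 6 genes. It read 12.06 for Penk, 8.64 for Cxcl5, 5.08 for Calcb, 11.02 for Tmem86a, 6.27 for Klk6 and 12.36 for Tph1. C451A-ERα L18 under E2+Pg was high for Penk (14.66) and Slc2a3 (7.97) and low for Fgb (10.53). Each of these 17 values lay on the side of the other genotype. Upk3a, Cited1, Irx3, Mgp and Nr3c2 held no such value.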

How the results depend on the processing

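Every gene called kept its direction under all 38 alternatives in which it was tested, and the 4897 values of single genes under these alternatives held no reversal. The counts moved. With slide as a fixed block 259 genes were lower and 47 higher, with slide as a random block 247 and 29, and without the treatment term 186 and 28. Array weights gave 1108 and 891 (55.4% lower, against 83.8%), and leaving out the 4 mice with a weight under 0.5, an alternative chosen after seeing the data, 1375 and 1203 (53.3% lower). The authors' table gave 490 and 153, probes well above background on all arrays 223 and 51, no filter 251 and 30, and no fold threshold 474 and 187 (71.7% lower). Without slide 1, slide 2 or slide 3 there were 0 lower and 0 higher genes, and without slide 5 there were 217 and 44. The 4 group means, the other 3 normalizations, the mean of probes and leaving out slide 4 kept both counts within 1.5 times.

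Leaving out 1 mouse gave 106 to 641 lower and 9 to 240 higher genes. Both counts fell by more than 1.5 times without L58 (189 and 17), L76 (214 and 20), L51 (229 and 24), L56 (215 and 26), L67 (106 and 9), L50 (180 and 16), L52 (110 and 9), L57 (182 and 20), L62 (214 and 29) or L47 (192 and 23). The higher count alone fell without L53 (31), L63 (27) or L44 (28) and grew without L18 (127) or L21 (217, 70.7% lower). Both grew without L4 (567 and 193) or L72 (641 and 240, 72.8% lower). The test of the difference between treatments gave 0 to 24 genes over the same fits, with 24 without L72 and 0 in the others, and 0 with a slide block (1162 at an unadjusted p below 0.05) or array weights (3777). Of 123 called genes named, 48 were called whichever mouse was left out and 0 under every other alternative, since none passed without slide 1, 2 or 3. By replicate number, no paired analysis was possible because the labels give none that the groups share. The fit with slide as a fixed block compares mice within a slide. The number of arrays limits all of these counts, and the causes of the changes were not tested.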

Other observations

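Clock genes, listed after their values were seen, were higher where they passed. Of 17 tested genes of the circadian clock and its output 4 were higher (23.5%, against 0.344% of all genes) and none lower. At an unadjusted p below 0.05, 11 were higher (8.65% of all genes). The median was 0.478 (0.375 under E2 and 0.443 under E2+Pg), against 0.00284 over all genes. The repressors Per1, Cry2 and Nr1d1 were 1.88-fold, 1.64-fold and 2.40-fold higher in C451A-ERα LCs, and the output factor Tef 1.75-fold (limma, adjusted p = 0.0403, 0.0454, 0.0337 and 0.0374). Nr1d1 read a lowest, median and highest value of 7.55, 8.88 and 10.2 in C451A-ERα LCs and 6.74, 7.35 and 8.41 in wild-type LCs. These calls were kept in 4, 5, 6 and 5 of the 19 fits without 1 mouse, and none passed with slide as a fixed block (0.0544, 0.0778, 0.0527 and 0.0673).

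The peptidylarginine deiminases, which convert arginine in proteins to citrulline, were also listed after their values were seen. Of 5 tested members 3 were lower (60%, against 1.78% of all genes): Padi2 3.51-fold, Padi3 4.44-fold and Padi4 5.91-fold (adjusted p = 0.0366, 0.0451 and 0.0167). Padi4 was called whichever mouse was left out, Padi2 was kept in 6 and Padi3 in 5 of 19 fits, and with slide as a fixed block Padi2 (0.0566) and Padi3 (0.0726) did not pass. Padi2 and Padi4 were also lower with E2+Pg than with E2, by −2.03 and −2.10 on the log2 scale.

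Genes of plasma proteins, known mainly from liver and listed after their values were seen, went both ways. Of 25 tested, 7 were lower (28%, against 1.78% of all genes) and 6 higher (24%, against 0.344%). Hp, haptoglobin, was 3.47-fold lower (adjusted p = 0.0155, whichever mouse was left out), and Fetub, a fetuin, 2.23-fold lower (adjusted p = 0.0244, kept in 14 of 19 fits). Rbp4, the retinol carrier, fell by 0.93 on the log2 scale (adjusted p = 0.0337, kept in 6 of 19 fits). Besides the fibrinogens, Apof and Apoc1, both apolipoproteins, Hc, a complement component, and Agt, angiotensinogen, were 3.34-fold, 1.67-fold, 3.05-fold and 1.93-fold higher (adjusted p = 0.0319, 0.0407, 0.0322 and 0.0483). These 4 were kept in 6, 5, 7 and 5 of the 19 fits. With slide as a random block none passed (0.0632, 0.0729, 0.0636 and 0.0658).

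Gusb, a lysosomal enzyme and a reference gene of the study's quantitative PCR, was 1.56-fold lower in C451A-ERα LCs (adjusted p = 0.0414). Its lowest, median and highest values were 8.11, 9.27 and 9.57 in C451A-ERα LCs and 9.41, 9.70 and 10.01 in wild-type LCs. The call was kept in 5 of 19 fits without 1 mouse and lost with slide as a fixed block (0.086). Of the study's 4 reference genes tested, Gusb alone was called (25%, against 1.78% of all genes). Their median difference was −0.0099, with 1 lower and 1 higher at an unadjusted p below 0.05. Within 10 Mb of Esr1 1 of 67 tested genes was called, against 2.12% of all genes: Lrp11, a membrane protein of the LDL receptor family (2.25-fold lower, adjusted p = 0.0291, kept in 7 of 19 fits).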
